A study of Mus musculus with 4 samples.

Results

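A set of 10 cytokine receptor genes were followed by name: Il17ra, Il17rc, Il17re, Il22ra1, Il10rb, Il6ra, Ifngr1, Ifngr2, Ifnar1 and Ifnar2. They encode chains of receptors through which the colon lining responds to interleukin (IL)-17, IL-22, IL-10, IL-6 and the interferons. Of the IL-10 receptor only the shared chain gene Il10rb is a member. The members are 10 of the 18872 genes listed in the deposited tables, and all 10 had enough counts to be tested. The libraries came from colon epithelial cells of mice that drank 2% dextran sulfate sodium (DSS), which injures the colon lining, for 3 days. In KO_DSS mice (genotype EZH2-IEC-/-) the epithelium lacks Ezh2, the methyltransferase of Polycomb repressive complex PRC2, going by the labels and the series title, and WT_DSS mice were wild type, with 2 libraries in each group. All mice received DSS, so every difference is one between genotypes under DSS. The driver of the deletion, the age of the mice and any pooling of mice are not given in the sources used here.

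Each of these receptors works as an assembly of different chains. IL-17RA is the shared chain of the IL-17 receptors: with IL-17RC it binds IL-17A and IL-17F, and with IL-17RE it binds IL-17C, which epithelial cells themselves make. IL-22RA1 pairs with IL-10RB, a chain also used by IL-10 and the lambda interferons, and signals mainly through STAT3, which in the gut drives antimicrobial and repair genes. IFNGR1 and IFNGR2 form the receptor of interferon gamma and signal through the kinases JAK1 and JAK2, whereas IFNAR1 and IFNAR2 bind the type I interferons and signal through JAK1 and TYK2. IL-6RA binds IL-6 and needs the common chain gp130, encoded by Il6st.

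Several of these genes lie side by side. In the RefSeq annotation (GRCm38.p6), Ifnar2, Il10rb, Ifnar1 and Ifngr2 follow each other on chromosome 16 with no other protein-coding gene between them. Il17re and Il17rc are neighbours on chromosome 6, Il22ra1 lies next to Ifnlr1 on chromosome 4, and Ifngr1 lies next to Il22ra2 on chromosome 10. PRC2 is known to bind promoters rich in CG dinucleotides. The promoters of the members that passed the test, and of Il17re beside Il17rc, are therefore shown with each CG pair in capitals. PRC2 binding was not measured here, and a link between CG pairs and the changes was not tested. RefSeq promoter sequences matched 8 of the 10 members. The windows below are the 250 bases before each gene's start, 5′ to 3′ on the plus strand of GRCm38.p6, at chr6:113471205-113471454 (Il17rc), chr6:113458521-113458770 (Il17re), chr4:135727909-135728158 (Il22ra1), chr10:19591699-19591948 (Ifngr1) and chr16:91546809-91547058 (Ifngr2).
Il17rc: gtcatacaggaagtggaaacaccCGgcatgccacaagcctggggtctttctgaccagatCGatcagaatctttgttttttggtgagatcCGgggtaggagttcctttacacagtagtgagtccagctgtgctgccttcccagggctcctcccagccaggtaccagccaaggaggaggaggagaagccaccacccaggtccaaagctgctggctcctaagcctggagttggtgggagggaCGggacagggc
Il17re: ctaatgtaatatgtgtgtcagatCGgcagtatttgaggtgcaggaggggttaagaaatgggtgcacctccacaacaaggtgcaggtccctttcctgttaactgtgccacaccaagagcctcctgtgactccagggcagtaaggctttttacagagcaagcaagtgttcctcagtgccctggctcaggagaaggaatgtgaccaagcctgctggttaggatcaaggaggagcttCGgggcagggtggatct
Il22ra1: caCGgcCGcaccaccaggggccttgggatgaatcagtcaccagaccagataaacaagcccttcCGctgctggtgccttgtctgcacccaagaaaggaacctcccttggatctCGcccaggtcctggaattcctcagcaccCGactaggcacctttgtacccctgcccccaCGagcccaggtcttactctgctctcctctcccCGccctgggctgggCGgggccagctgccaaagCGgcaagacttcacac
Ifngr1: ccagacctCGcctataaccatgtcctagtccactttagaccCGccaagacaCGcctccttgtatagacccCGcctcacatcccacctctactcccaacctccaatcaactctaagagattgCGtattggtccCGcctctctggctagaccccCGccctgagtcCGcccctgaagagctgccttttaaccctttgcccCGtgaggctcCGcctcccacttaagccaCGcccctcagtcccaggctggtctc
Ifngr2: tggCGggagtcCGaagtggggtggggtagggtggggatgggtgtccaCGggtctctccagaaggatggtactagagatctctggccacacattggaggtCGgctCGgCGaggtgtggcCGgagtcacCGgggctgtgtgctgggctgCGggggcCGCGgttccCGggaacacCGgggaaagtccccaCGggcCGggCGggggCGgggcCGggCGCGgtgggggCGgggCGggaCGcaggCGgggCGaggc

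Within 300 bases around the start, Ifngr2 had 31 CG pairs, Ifnar1 26, Il6ra 25, Ifnar2 18, Ifngr1 14, Il22ra1 11, Il17rc 7 and Il17re 3, against a median of 7 over the 32851 promoters of the table. CG content thus ran from the sparse Il17re promoter to that of Ifngr2, which held more CG pairs than 89.4% of promoters. A STAT-type motif, TTCNNNGAA, which reads the same on both strands, was found in the promoters of Ifnar2 and Ifnar1 and in 8.3% of all promoters. Its centre lay 210 bases before the Ifnar2 start and 1 base before the Ifnar1 start. The motif is in capitals in these stretches, at chr16:91372549-91372597 (Ifnar2) and chr16:91485190-91485234 (Ifnar1).
Ifnar2: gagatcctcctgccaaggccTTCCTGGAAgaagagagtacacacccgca
Ifnar1: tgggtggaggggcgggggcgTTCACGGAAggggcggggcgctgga

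The core of the interferon-stimulated response element, searched on both strands as GAAA, any 2 bases and GAAA, was in none of the 8 promoters and in 3.44% of all promoters.

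The libraries held 5399949 and 5446998 estimated counts in KO_DSS and 5037367 and 5236519 in WT_DSS. Ezh2 was counted at 86 and 83 in KO_DSS and at 105 and 102 in WT_DSS, a log2 fold change of -0.27 ± 0.17 (SE) that did not pass (edgeR adjusted p = 0.217). The deleted exons are not given in the sources used here, and a gene-level count cannot check the genotype without them. Epithelial markers were abundant in all libraries, with the summed FPKM of 7 markers at 6408 and 6407 in KO_DSS and 5515 and 5470 in WT_DSS. The keratin Krt8 made up most of that sum, at 3731 and 3785 FPKM in KO_DSS and 3247 and 3301 in WT_DSS. Of the 7 markers 5 rose, among them Krt20, Cdx2 and Krt18 (log2 fold changes 1.25, 1.16 and 0.68), and the adhesion genes Epcam (-0.27) and Cdh1 (-0.6) fell. For this count and those that follow, 23.0% of the 13608 genes tested rose and 20.8% fell (edgeR, adjusted p under 0.05). Markers of other cells were present too. The 12 fibroblast and smooth muscle genes summed to 1143 and 1452 FPKM in KO_DSS and 2413 and 2608 in WT_DSS, and 10 of the 12 fell, among them Tagln (404.7 and 541.1 FPKM in KO_DSS, 948 and 1109 in WT_DSS) and Acta2. The 15 T and NK cell genes summed to 101.5 and 100.4 FPKM in KO_DSS and 27.6 and 27.9 in WT_DSS, and 12 of the 13 tested rose, among them Ptprc and Gzma (19.9 and 13.5 FPKM in KO_DSS, 0.69 and 1.78 in WT_DSS). Among macrophage and dendritic cell genes, 10 of 14 rose, Lyz2 and C1qa included, and none fell, with sums of 544.5 and 611.8 FPKM in KO_DSS and 382.6 and 401.1 in WT_DSS. B cell and plasma cell markers split, with 3 of 9 higher, Jchain and Xbp1 included, and 4 lower (summed 489.9 and 552.6 FPKM in KO_DSS, 404.5 and 380.8 in WT_DSS). Of 8 endothelial genes 4 fell, Pecam1 and Eng included (summed 18.0 and 19.7 FPKM in KO_DSS, 29.7 and 30.2 in WT_DSS). The neutrophil granule genes Mpo, Elane, Ngp and Mmp8 were not listed in any library, and 2 of the 4 neutrophil genes tested rose. Excluding Ly6g, which only the replicate 2 files list, no gene of that list exceeded the 7.58 FPKM of Cxcr2.

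At the median, receptor transcripts changed between the genotypes by about as much as all genes tested. Il17rc rose to 1.4 times its WT_DSS level, and Ifngr1, Ifngr2 and Il22ra1 fell to 0.84, 0.77 and 0.77 times theirs (fold from edgeR). The other 6 genes did not pass. Of the 10 members, 1 rose and 3 fell, while 23.0% of the 13608 genes tested rose and 20.8% fell (edgeR, adjusted p under 0.05), or 43.7% in either direction, so the share of members called was close to that of all genes. With KO_DSS replicate 1 left out, 2 members were called higher and 1 lower, and with either WT_DSS library left out 1 was called lower. The median absolute log2 fold change was 0.38 over the members and 0.42 over all genes tested, and no member exceeded 0.66. On FPKM, the KO_DSS libraries lay above both WT_DSS libraries for 1 member and below both for 7, against 30.4% and 42.5% of all genes tested, 73.0% in either direction. FPKM was shifted down in KO_DSS by 0.08 (log2) at the median of all genes, a shift that the edgeR scaling removes. Leukocytes and stromal cells also express several of these receptors. In such mixed samples fewer cells of a type and less RNA per cell cannot be told apart, and the part of the marker shifts given above in the receptor changes was not tested.

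**Figure D1:**
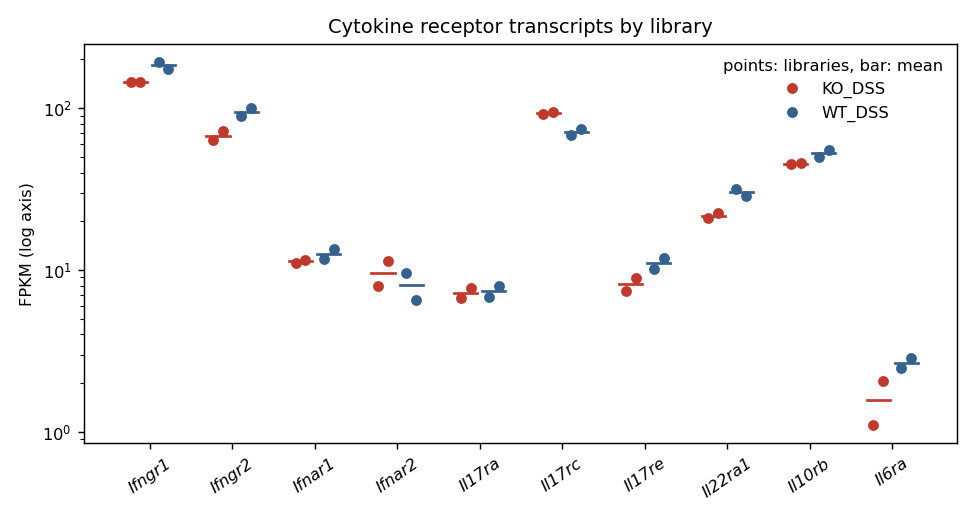
FPKM (log axis) of each of the 10 receptor genes in the 2 KO_DSS and 2 WT_DSS libraries, with each point a library and each bar a mean. Ifngr1 was the most abundant in both groups and Il6ra the least, and for Il17rc both KO_DSS points lie above both WT_DSS points.

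Among the IL-17 receptor chains, Il17rc, the chain specific to IL-17A and IL-17F, was the abundant one. It had 91.5 and 94.3 FPKM in KO_DSS and 68.3 and 74.6 FPKM in WT_DSS (expected counts 1160 and 1216 against 808 and 911). Both knockout libraries were above both wild-type libraries, and the log2 fold change was 0.49 ± 0.09 (SE, n = 2 per group, edgeR adjusted p = 0.00216). The rise passed with any 1 library left out, but not on quantile normalized FPKM (limma, 0.24, adjusted p = 0.0538).

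Il17re, the chain for IL-17C, had 7.43 and 8.86 FPKM in KO_DSS and 10.2 and 11.9 FPKM in WT_DSS. The groups did not overlap, and the log2 fold change of -0.41 ± 0.16 did not pass (edgeR adjusted p = 0.0714). It did pass on library totals alone (-0.51, edgeR adjusted p = 0.032), which shifted the median of all genes to -0.103. On genes with a mean FPKM of at least 5 it passed too (-0.48, edgeR adjusted p = 0.0366). It did not pass with DESeq2 (-0.41, adjusted p = 0.238) or with no filter on low counts (-0.4, edgeR adjusted p = 0.107). Nor did it on quantile normalized FPKM (limma, -0.29, adjusted p = 0.156). With 1 library left out, the value ran from -0.24 (without KO_DSS replicate 1) to -0.59 (without KO_DSS replicate 2). Il17re overlaps a long noncoding RNA gene in RefSeq, Gm52872, that the files do not list. Overlap of exons was not checked, and reads of any shared stretch cannot be told apart without strand.

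Il17ra, the shared signalling chain, had 6.74 and 7.68 FPKM in KO_DSS and 6.84 and 8.0 FPKM in WT_DSS. The groups overlapped and the log2 fold change was 0.06 ± 0.15 (edgeR adjusted p = 0.764), with a 95% interval for the fold of 0.83 to 1.31. The sign of this value turned on library totals alone (-0.04) and on other scalings, so no direction is given. Il17ra was thus measured far below Il17rc in every library.

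The balance of the IL-17 chains can be read within a library, where the scaling between libraries cancels. The FPKM ratio of Il17rc to Il17re was 12.3 and 10.6 in KO_DSS and 6.72 and 6.29 in WT_DSS, 1.77 times higher on average in KO_DSS. That of Il17rc to Il17ra was 13.6 and 12.3 in KO_DSS and 9.99 and 9.32 in WT_DSS, 1.34 times higher. Neither ratio overlapped between groups, and the exact two-sided permutation test gave p = 0.333 for both, the smallest that 2 libraries against 2 can give. In the edgeR fits, the adjacent genes Il17re and Il17rc had fold changes of opposite sign, of which only that of Il17rc passed.

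**Figure D2:**
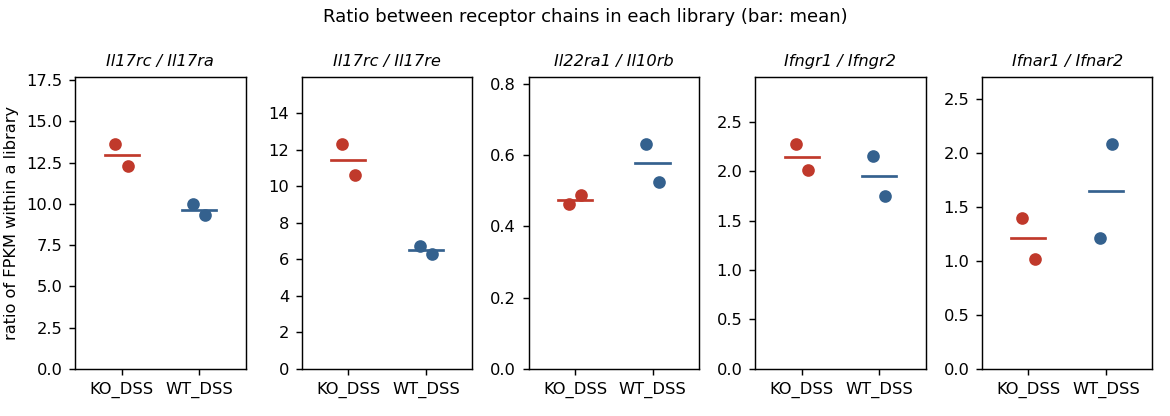
Ratio of FPKM between receptor chains within each of the 2 KO_DSS and 2 WT_DSS libraries, with points for libraries and bars for means. The Il17rc to Il17re ratio was 12.3 and 10.6 in KO_DSS and 6.72 and 6.29 in WT_DSS, whereas the Ifngr1 to Ifngr2 ratios overlapped.

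Both chains of the interferon gamma receptor fell. Ifngr1, the ligand-binding chain, had 144.3 and 144.5 FPKM in KO_DSS and 192.6 and 174.7 FPKM in WT_DSS. It was the most abundant member and its groups did not overlap, with a log2 fold change of -0.24 ± 0.08 (edgeR adjusted p = 0.0368). The call was lost with DESeq2 (adjusted p = 0.0619), with no filter on low counts (edgeR adjusted p = 0.0661) and with any 1 library left out (edgeR adjusted p = 0.0505 to 0.287, the highest without WT_DSS replicate 1).

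Ifngr2, the chain that brings in JAK2, had 63.4 and 71.9 FPKM in KO_DSS and 89.6 and 99.95 FPKM in WT_DSS. The knockout libraries were again the lower ones, and the log2 fold change was -0.38 ± 0.1 (edgeR adjusted p = 0.0145). It did not pass without KO_DSS replicate 1 (-0.3, edgeR adjusted p = 0.0543) or without WT_DSS replicate 2 (-0.3, edgeR adjusted p = 0.0973). The ratio of Ifngr1 to Ifngr2 was 2.27 and 2.01 in KO_DSS and 2.15 and 1.75 in WT_DSS, which overlapped (exact two-sided permutation p = 0.667). The chains thus fell by amounts that this design did not separate.

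The type I interferon receptor chains were expressed at about the level of Il17re. Ifnar1 had 11.1 and 11.5 FPKM in KO_DSS and 11.7 and 13.5 FPKM in WT_DSS. Its log2 fold change was -0.05 ± 0.1 (edgeR adjusted p = 0.7), with a fold interval of 0.82 to 1.13, and its sign turned without WT_DSS replicate 2 (0.05).

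Ifnar2, which in mice encodes a membrane and a soluble form of the chain, had expected counts of 72 and 95 in KO_DSS and 67 and 52 in WT_DSS. Its FPKM values, 7.92 and 11.3 in KO_DSS and 9.64 and 6.5 in WT_DSS, overlapped. The deposited transcript length, on which FPKM depends, was 1688 and 1552 bases in KO_DSS and 1392 and 1537 bases in WT_DSS. The count-based log2 fold change of 0.51 ± 0.23 did not pass (edgeR adjusted p = 0.105, fold interval 0.99 to 2.04). With 1 library left out it ran from 0.31 (without KO_DSS replicate 2 or WT_DSS replicate 2) to 0.72 (without WT_DSS replicate 1). DESeq2 did not call it (adjusted p = 0.276), whereas edgeR with a replicate block, given in the closing section, did. A noncoding gene, Gm36587, overlaps Ifnar2 in RefSeq, and the same limit on strand holds. The ratio of Ifnar1 to Ifnar2 was 1.4 and 1.02 in KO_DSS and 1.21 and 2.08 in WT_DSS, which overlapped.

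Of the IL-22 receptor chains, Il22ra1, which gives the receptor its specificity and is found on epithelial rather than blood cells, fell. It had 20.9 and 22.3 FPKM in KO_DSS and 31.5 and 28.8 FPKM in WT_DSS, with no overlap and a log2 fold change of -0.38 ± 0.09 (edgeR adjusted p = 0.0107). The fall did not pass without WT_DSS replicate 1 (-0.32, edgeR adjusted p = 0.0771). Il10rb, the shared chain, had 45.1 and 45.9 FPKM in KO_DSS and 49.97 and 54.98 FPKM in WT_DSS, and its log2 fold change of -0.1 ± 0.1 did not pass (edgeR adjusted p = 0.406, fold interval 0.8 to 1.08). The ratio of Il22ra1 to Il10rb was 0.463 and 0.487 in KO_DSS and 0.63 and 0.524 in WT_DSS (exact two-sided permutation p = 0.333, the smallest possible).

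Il6ra was the scarcest member. It had 20 and 38 expected counts in KO_DSS and 42 and 51 in WT_DSS, or 1.1 and 2.05 FPKM in KO_DSS and 2.48 and 2.86 in WT_DSS. Both knockout values were the lower ones, and the log2 fold change of -0.66 ± 0.33 did not pass (edgeR adjusted p = 0.137). With 1 library left out it ran from -0.28 (without KO_DSS replicate 1) to -1.17 (without KO_DSS replicate 2). DESeq2 did not call it (adjusted p = 0.308), whereas edgeR with a replicate block, given in the closing section, did. Of the 10 members Il6ra alone had transcript lists that differed between the replicate 1 and replicate 2 files. It also overlaps a noncoding gene, Gm46811.

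**Figure D3:**
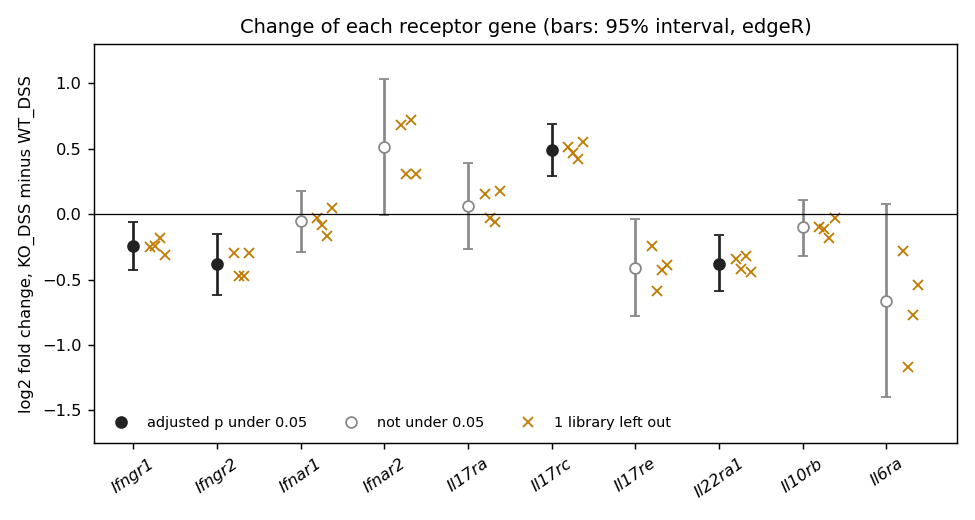
Log2 fold change (KO_DSS minus WT_DSS) of each receptor gene with its 95% interval from edgeR, filled where the adjusted p was under 0.05, with crosses for fits that leave out 1 library. Il17rc is the called gene above 0, at 0.49, and Ifngr1, Ifngr2 and Il22ra1 are the called genes below it.

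By level per transcript length, the order in KO_DSS was Ifngr1, Il17rc, Ifngr2, Il10rb, Il22ra1, Ifnar1, Ifnar2, Il17re, Il17ra and Il6ra. In WT_DSS it was Ifngr1, Ifngr2, Il17rc, Il10rb, Il22ra1, Ifnar1, Il17re, Ifnar2, Il17ra and Il6ra. Il17rc and Ifngr2 changed places, and in each group the libraries of that pair did not overlap. The neighbours Ifnar1 and Ifnar2, Ifnar2 and Il17re, and Il17re and Il17ra overlapped in KO_DSS, as did Ifnar1 and Il17re, and Ifnar2 and Il17ra, in WT_DSS. Mean FPKM spanned from 1.57 ± 0.67 (SD, n = 2) for Il6ra to 144 ± 0.14 for Ifngr1 in KO_DSS, and from 2.67 ± 0.27 to 184 ± 12.6 in WT_DSS.

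Other receptor chains of these cytokine families were also followed. Of 12 chains 10 were tested, of which 2 rose and 4 fell, or 20% and 40% beside 23.0% and 20.8% of all genes tested. The number that rose was 1 without KO_DSS replicate 2 or WT_DSS replicate 1, and the number that fell was 2 without KO_DSS replicate 1 or WT_DSS replicate 1. Osmr, the receptor chain of oncostatin M that pairs with gp130, had 4.13 and 4.05 FPKM in KO_DSS and 1.38 and 0.66 FPKM in WT_DSS (log2 fold change 2.1, edgeR adjusted p = 0.000479). Il22ra2, which encodes a soluble decoy that binds IL-22, had 1.34 and 1.11 FPKM in KO_DSS and 4.25 and 3.7 FPKM in WT_DSS (log2 fold change -1.59, edgeR adjusted p = 0.00216). The decoy and the receptor chain Il22ra1 thus both fell, and whether the sizes differ was not tested. Il11ra1, the IL-11 receptor chain, fell by 0.66 on the log2 scale, and the lambda interferon receptor Ifnlr1, the neighbour of Il22ra1, had 6.95 and 7.11 FPKM in KO_DSS and 6.47 and 8.21 FPKM in WT_DSS (edgeR adjusted p = 0.859). The common chain Il6st had a log2 fold change of -0.22 and did not pass (edgeR adjusted p = 0.0885).

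The ligands of these receptors were barely detected. Of 20 ligand genes 12 were listed with a count in any library and 2 had enough counts to be tested, Il17d (log2 fold change -0.47, edgeR adjusted p = 0.362) and Il11 (0.24, edgeR adjusted p = 0.661). Ifng, the ligand of Ifngr1 and Ifngr2, had 14 and 8 counts in KO_DSS and 0 and 1 in WT_DSS, a ratio of 20.8 with a 95% exact Clopper-Pearson interval of 3.37 to 860. Il17c, the ligand of the Il17re chain, had 3 and 10 counts in KO_DSS and 0 and 1 in WT_DSS, a ratio of 12.3 and a 95% interval from 1.85 to 523.3. These intervals cover counting error only, not the spread between libraries. Ifng was the 1 ligand gene called higher by edgeR when no filter on low counts was applied, and 1 ligand gene, again Ifng, was called higher without KO_DSS replicate 2, without WT_DSS replicate 1 and without WT_DSS replicate 2. Il17a (1 and 1), Il17f (2 and 1), Il22 (1 and 0), Il10 (0 and 2) and Ifnl3 (1 and 0) had these counts in the KO_DSS libraries, and each had 0 and 0 in the WT_DSS libraries. Il6 (0 and 1 in KO_DSS, 1 and 0 in WT_DSS), Il17b (1 and 0 in KO_DSS, 1 and 0 in WT_DSS) and Il25 (0 and 0 in KO_DSS, 0 and 2 in WT_DSS) were as scarce. A count of 0 allows up to 3 counts in a library, so no difference was detectable for these 8 genes. T and NK cell markers, given above, were higher in the same libraries as Ifng, and their part in it was not tested.

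Downstream of the receptors, several feedback and target genes rose. The lists below were chosen with earlier results of these data known, so their counts describe the lists and are no independent test. Of 15 transducer and feedback genes 6 rose and none fell, or 40% and 0% beside 23.0% and 20.8% of all genes tested. Their median log2 fold change was 0.29 beside -0.002 over all genes tested. Socs3, the inhibitor induced by STAT3, had 46.4 and 43.7 FPKM in KO_DSS and 5.33 and 4.78 FPKM in WT_DSS (log2 fold change 3.26). Socs1, which inhibits JAKs after interferon gamma, had 73.4 and 70.9 FPKM in KO_DSS and 3.95 and 2.69 FPKM in WT_DSS (log2 fold change 4.56). Both inhibitor genes passed the test, and their groups did not overlap. Transducers that did rise included Traf6 (log2 fold change 0.43, edgeR adjusted p = 0.0438) and Stat2 (0.63, edgeR adjusted p = 0.00109). The kinases Jak1, Jak2 and Tyk2 and the IL-17 adaptor Traf3ip2, also called Act1, stayed under the threshold. Their log2 values were -0.04, 0.04, 0.26 and -0.03, and Stat3 at 0.14 was not called either.

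Of 9 IL-17 responsive genes tested, 8 rose and 1 fell, with a median log2 fold change of 2.17. These are 88.9% and 11.1%, beside 23.0% and 20.8% of all genes tested. Zc3h12a, an endoribonuclease that trims inflammatory transcripts, had 50.4 and 56.3 FPKM in KO_DSS and 14.7 and 14.1 FPKM in WT_DSS. Nox1, the NADPH oxidase of colon epithelium, had 34.2 and 29.9 FPKM in KO_DSS and 8.33 and 6.98 FPKM in WT_DSS. The neutrophil chemokine Cxcl5 rose as well. Pigr, the receptor that carries IgA across the epithelium, fell by 0.46 on the log2 scale. Of 13 IL-22 and STAT3 responsive genes, 11 rose and 2 fell, or 84.6% and 15.4% beside the same shares of all genes. The median was 3.26, the same with Reg3b, uncounted in WT_DSS, placed at its lower bound. The 2 that fell were the serum amyloid genes Saa1 and Saa2. Saa1 was the most abundant gene of the list in every library, at 866.3 and 1194 FPKM in KO_DSS and 2164 and 2523 FPKM in WT_DSS. Lrg1, a secreted leucine-rich glycoprotein, had 356.8 and 281.8 FPKM in KO_DSS and 7.44 and 6.46 FPKM in WT_DSS (log2 fold change 5.62). Duoxa2, the maturation factor of the oxidase DUOX2, rose too. S100a8 and S100a9 of this list are also neutrophil genes. Many of these genes also respond to TNF and other signals, so a list does not measure one receptor.

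All 21 interferon gamma responsive genes rose, beside 23.0% of all genes tested. Their median log2 fold change was 2.42, while both receptor chains were lower. Ido1, the enzyme that degrades tryptophan, had 184.3 and 200.9 FPKM in KO_DSS and 3.71 and 3.7 FPKM in WT_DSS (log2 fold change 5.8). The immunity-related GTPase Iigp1 and the immunoproteasome subunit Psmb8 also rose. Of 15 type I interferon responsive genes, 4 rose and 3 fell, with a median of 0.28, and 7 rose without KO_DSS replicate 1. These shares, 26.7% and 20%, were close to the 23.0% and 20.8% of all genes tested. Ifit2, an interferon-induced RNA-binding protein, had 17.5 and 21.8 FPKM in KO_DSS and 2.54 and 2.64 FPKM in WT_DSS, and its relative Ifit1 had 5.95 and 8.0 FPKM in KO_DSS and 16.9 and 18.2 FPKM in WT_DSS, both past the threshold. Zbp1, a nucleic acid sensor, had 120.8 and 120.6 FPKM in KO_DSS and 25.2 and 31.7 FPKM in WT_DSS and rose too. Members of these lists that infiltrating leukocytes also express, such as Cd74 and Irf8, rose in the libraries with more leukocyte markers, and the part of those cells was not tested.

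**Figure D4:**
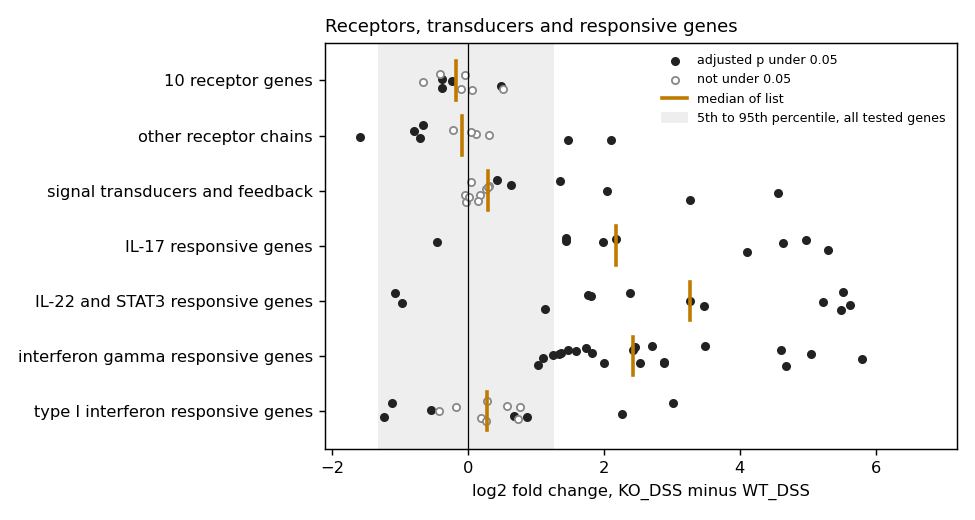
Log2 fold change (KO_DSS minus WT_DSS) of each tested gene in 7 lists, filled where the edgeR adjusted p was under 0.05, with list medians as vertical bars and the 5th to 95th percentile of all tested genes (-1.32 to 1.25) shaded. Reg3b, with no counts in WT_DSS, is not drawn. The 10 receptor genes lie within the shaded range, whereas the interferon gamma responsive genes have a median of 2.42. The lists were chosen with earlier results of these data known.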

How the data were processed

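RNA was extracted with Trizol and sequenced from Illumina TruSeq RNA libraries, per the labels' protocols. Per the file headers, the authors deposited for each library an expected count, an FPKM value and a transcript length (unit other) per Entrez gene. Expected counts are the authors' estimated counts, 78.8% to 80.2% of them exactly whole. FPKM values, scaled for transcript length and depth, are those the authors deposited. The submitters' processing notes name Bowtie2, BWA and the human build hg19, with no roles. The quantification tool and mouse build are not given in the sources used here, so file coordinates are not printed. RefSeq (GRCm38.p6) gave symbols for 99.72% of 18872 identifiers.

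Genes absent from a file were taken as 0. The transcript list was the same in all 4 files for 14804 of the 18872 genes. A 0 for a gene that a file does not list, such as Ly6g in the replicate 1 files, need not be a measured absence. Expected counts were rounded to whole numbers, and edgeR's quasi-likelihood test (version 4.0.16, R 4.3.3) was applied to them (filterByExpr, TMM scaling, 2 libraries against 2, two-sided, Benjamini-Hochberg over 13608 genes). Depth was 5037367 to 5446998 estimated counts a library. The SE is the absolute log2 fold change over the square root of F, and 95% intervals use the test's degrees of freedom. Alternatives used DESeq2 1.42.0, limma 3.58.1, other scalings and filters, a replicate block and each library left out. The edgeR script was also run on simulated counts with few changed genes and a common dispersion. That run checks the code and not the scaling or error rates in these data, where far more genes were called. Libraries of a group differed beyond sampling noise (chi-square per degree of freedom 5.01 in KO_DSS and 4.19 in WT_DSS) and were kept separate. The labels do not say that they are separate mice, so p-values measure the spread between libraries, which may be technical.

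Members and gene lists were chosen with earlier results of these data known. Named genes are all members, the called genes with the 3 smallest p-values of each list and every ligand with a count, and of each list of other cells the 2 genes with the highest mean FPKM. Other genes named, such as Ifnlr1, Il6st, Jak1, Traf3ip2, Pigr, Saa1, S100a8 and Cd74, were chosen after their values were seen. A gene that this rule names is not reported here.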

Additional observations from a re-analysis of the deposited data

How the results depend on the processing

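Over 128 recomputed member values, 103 kept their direction and side of the threshold, 10 lost a call, 8 gained one and 7 turned sign. With the replicate block 2 members were called higher and 5 lower, adding Ifnar2 (0.51, edgeR adjusted p = 0.0282), Il17re (-0.41, edgeR adjusted p = 0.017) and Il6ra (-0.67, edgeR adjusted p = 0.0429). The block fit also called more of all genes, 3855 higher and 3548 lower of 13608, against 3126 and 2824 in the main fit. On quantile normalized FPKM 0 members were called higher with limma (51 genes of the related lists were called higher by edgeR and 50 by this limma fit). The labels do not say that equal numbers pair libraries, although libraries of equal number deviated together (r = 0.571 over 13608 genes, 0.264 over the 12991 with the same transcripts). With 1 library left out, 1 to 2 members were called higher and 1 to 4 lower, and 0 to 1 ligand genes higher. Il6ra rested on 20 to 51 expected counts a library, and Ifnar2 on 52 to 95. Il17ra, at 0.06, was -0.04 on library totals alone and with limma on log2(FPKM + 1) or log2(FPKM + 0.1), -0.01 on genes with a mean FPKM of at least 5, and -0.06 to 0.18 with a library left out. Ifnar1 ranged from -0.17 to 0.05 with a library left out. With both libraries of a replicate number left out, the ratio of Il22ra1 to Il10rb in KO_DSS over WT_DSS was 0.73 to 0.93 and that of Ifnar1 to Ifnar2 was 0.49 to 1.15. The causes were not tested. Library totals alone shifted the median of all genes to -0.103 and the share of called genes that were higher to 42.4%, against 52.5% with TMM. Of the other receptor chains 0 to 2 were called higher and 2 to 5 lower over all settings, and of the type I interferon genes 3 to 8 were called higher, with 8 under the replicate block.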
